A study of Sus scrofa with 6 samples.

Results

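Genes that store and move iron were followed through the first weeks of life in the pig ileum. The set held 9 genes, FTH1, FTL, NCOA4, TFRC, SLC11A2, CYBRD1, SLC40A1, HEPH and HMOX1, chosen by symbol for their known roles. Earlier results of these data were known when the set was chosen. All 9 were among the 20648 genes of the count files, which list genes by symbol alone. The cells came from the ileum mucosa of male large white piglets on day 0, 1, 3, 7, 14 and 21 after birth, all born at term, all fed maternal milk and none given another treatment. With 1 library of 10x Genomics 3′ single-cell RNA per age, each age is 1 measurement and no difference between ages could be tested. Mucosa was taken from 5 piglets per age and 1 cell suspension per group was loaded, and n = 5 is also stated for the single-cell map, but pooling of the 5 is not described. The labels give kit V3 where the methods give v.2, and the series' design text names the cecum where all sample labels name the ileum.

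Iron enters enterocytes at the brush border, where CYBRD1 reduces ferric iron and SLC11A2 (DMT1) carries ferrous iron into the cell. It leaves at the basolateral side through SLC40A1 (ferroportin), the only known iron exporter of mammals, with HEPH (hephaestin) oxidizing the exported iron. Cells that take iron from blood use TFRC, the transferrin receptor, surplus iron is held in shells of FTH1 and FTL chains, NCOA4 carries ferritin to the lysosome, and HMOX1 frees iron from haem, above all in macrophages that digest red cells. Ferritin and TFRC are also regulated after transcription by iron regulatory proteins, so mRNA levels alone do not give protein levels.

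Cells were barcodes with at least 1000 UMIs (unique molecular identifiers, each marking 1 captured transcript) and 500 genes, 76099 in all, between 10836 and 15956 per library with medians of 3693 to 4560 UMIs. Lineages were gated on UMIs of a few genes: epithelial (EPCAM, KRT8, VIL1), myeloid (LYZ, CST3, AIF1), B (MS4A1, PAX5, POU2AF1), with TOP2A marking the cycling ones, and T (CD3E, CD3G). Of the rest, stromal cells were taken by COL1A1, COL3A1 and PDGFRA and endothelial cells by PECAM1, CDH5 and VWF. The gates held 3832 epithelial, 1287 myeloid, 11838 cycling B, 39660 non-cycling B, 4775 T, 851 stromal and 519 endothelial cells, and 1443 cells that passed more than 1 of the 4 main gates were left out as possible doublets. Epithelial cells made up 24.00% of the day 0 cells and 0.169% of the day 14 cells, so at least 20 epithelial cells were present in 5 libraries (day 0 to day 14), myeloid cells in 4 (day 0, 1, 3 and 14), stromal and endothelial cells in 3 (day 0, 1 and 3), and B and T cells in all 6. A total of 672 barcodes occurred in more than 1 library, in 1344 cells (1.77%). Leaving these out ended 1 of the calls given here, that of NCOA4 between epithelial and myeloid cells.

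Marker lists that the gates did not use were highest in the lineage of that name, apart from CD74, with limits at some ages. Epithelial cells held 39.0 to 143 UMIs per 10000 of the epithelial list against 0.155 to 0.622 of the myeloid list. Myeloid cells held 97.1 to 172 UMIs per 10000 of the myeloid list on day 0, 1 and 14 but 21.3 on day 3, when 159 of 177 of them fell below the cuts for macrophage-like and for granulocyte or monocyte-like cells, 2 and 5 UMIs of the class's marker genes. Their B lineage list, at 83.3 to 148, was nearly all CD74, an antigen-presenting gene, and the other genes of that list summed to 1.25 to 2.01. T cells held 110 UMIs per 10000 of the T list on day 0 but 34.6 on day 1, and 54.1 to 100 from day 3 to day 21. Erythroid genes stood at 0.0365 to 0.175 UMIs per 10000 in myeloid cells and at 14.8 in non-cycling B cells on day 21.

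Levels below are UMIs of a gene summed over the cells of a lineage per 10000 UMIs of that sum, with exact Poisson 95% intervals that cover counting error only. RNA outside cells was read from barcodes of 1 to 100 UMIs and is called background RNA here. Because UMIs mark the 3′ end of transcripts with gene-dependent efficiency, levels are compared between cells and not between genes. Lineages were compared within libraries by edgeR's quasi-likelihood test on the sums (33 sums, library as a block, Benjamini-Hochberg adjustment over 12939 genes, called at an adjusted p under 0.05), so the libraries, which differ in age, served as replicates. Each SE is the absolute log2 divided by the square root of the F statistic of that test, since the fit reports no SE itself.

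**Figure D1:**
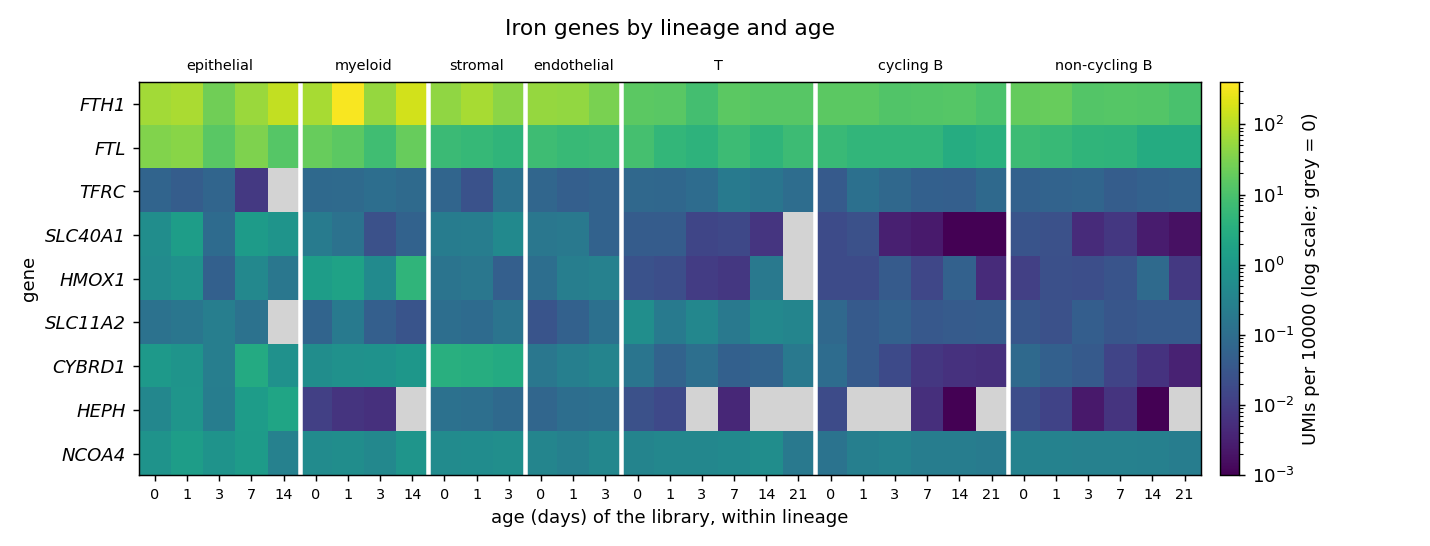
Level of each of the 9 genes (rows) in UMIs per 10000, on a log colour scale, in every library with at least 20 cells of a lineage (columns, ordered by lineage and then by age in days), with grey for 0. FTH1 and FTL were present in every sum, HEPH was mostly epithelial, and TFRC did not exceed 0.2 in any lineage.

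FTH1, the heavy ferritin chain that oxidizes incoming iron, was highest in myeloid cells. Its myeloid levels in the libraries of day 0, 1, 3 and 14 were 74.5 (95% interval 73.2 to 75.8), 350 (349 to 352), 52.3 (51.2 to 53.4) and 163 (158 to 167). Its epithelial levels for day 0, 1, 3, 7 and 14 were 65.2, 78.4, 24.5, 57.0 and 119. Both lineages thus had their lowest level in the day 3 library and lay above every B and T cell value in each library.

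Non-cycling B cells held FTH1 at 18.8, 20.003, 12.4, 13.6, 12.4 and 9.95 UMIs per 10000 from day 0 to day 21, cycling B cells at 10.3 to 15.8, and T cells at 8.495 to 15.9. Stromal cells held 46.5, 73.9 and 43.1 and endothelial cells 51.2, 49.0 and 30.2 on day 0, 1 and 3. Background RNA held 40.6, 68.6, 13.7, 17.6, 16.4 and 13.5 from day 0 to day 21, so the B and T cells lay below it in every library except T cells on day 21, at 14.0. Stromal cells lay above it at all 3 ages, by little on day 0 and 1, and endothelial cells above it on day 0 and 3 and below it on day 1. The part of RNA from outside the cells in these lymphocyte, stromal and endothelial values was not tested.

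Against non-cycling B cells FTH1 was 8.47-fold higher in myeloid cells (log2 3.08, SE 0.33, adjusted p = 3.66e-08), 3.95-fold in epithelial cells (log2 1.98, SE 0.31, adjusted p = 3.25e-06), 2.73-fold in stromal cells (log2 1.45, SE 0.34, adjusted p = 0.000819) and 2.16-fold in endothelial cells (log2 1.11, SE 0.34, adjusted p = 0.00949). The endothelial call was lost without the day 0 library (adjusted p = 0.103, the highest over the alternatives, with 0.00393 the lowest). It did not pass the test in T cells (log2 -0.23, SE 0.28, adjusted p = 0.620) or cycling B cells (log2 -0.26, SE 0.28, adjusted p = 0.547). Epithelial cells were lower than myeloid cells by 1.10 on the log2 scale (log2 -1.10, SE 0.34, adjusted p = 0.00763), a call that was lost without the day 1 library (log2 -0.52, adjusted p = 0.252) and when cells of several gates were kept (log2 -0.73, adjusted p = 0.0564). Over all alternatives its adjusted p ran from 0.00123 to 0.252. The FTH1 transcript may share reads with near-identical copies in the genome, which was not checked, so its counts carry that uncertainty.

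**Figure D2:**
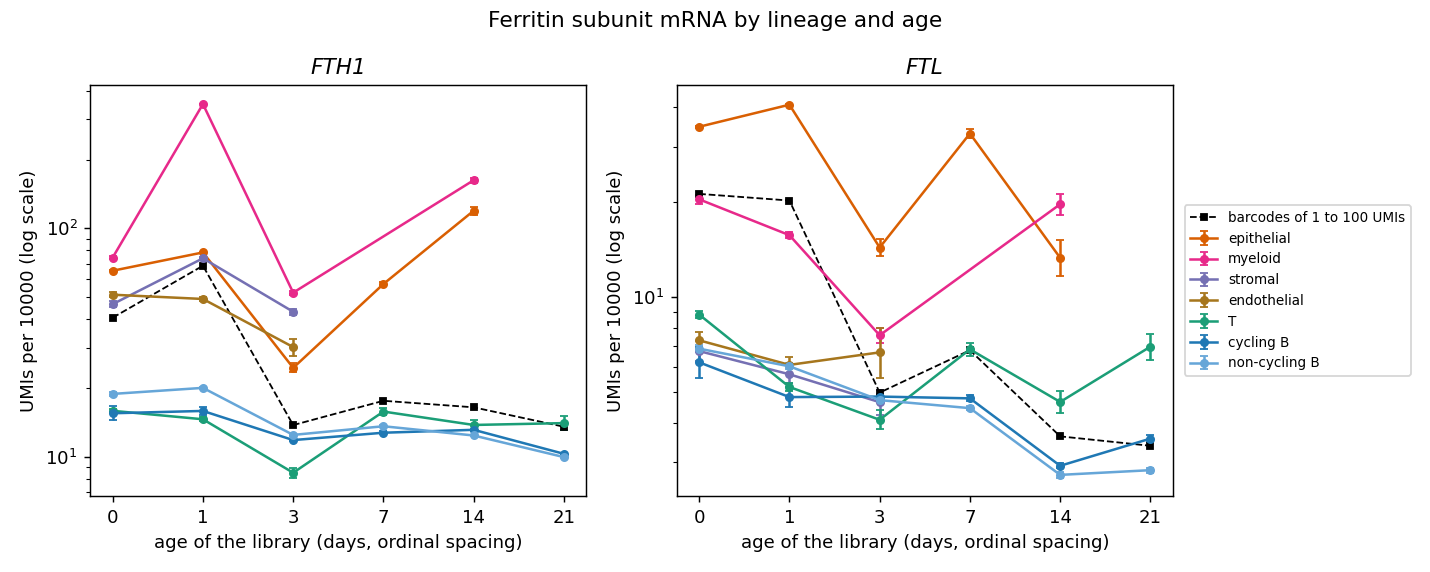
FTH1 (left) and FTL (right) in UMIs per 10000 on log axes against the age of the library, at ordinal spacing, with 1 line per lineage, exact Poisson 95% intervals as bars, and barcodes of 1 to 100 UMIs as a dashed line. Myeloid FTH1 was highest on day 1, at 350, and in epithelial cells FTH1 and FTL moved together until day 7 and apart on day 14, when FTH1 was 119 and FTL 13.3.

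FTL, the light ferritin chain that aids the forming of the iron core, was highest in epithelial cells at 4 of the 5 ages that held them. Its epithelial level was 34.7, 40.8, 14.4, 33.1 and 13.3 UMIs per 10000 on day 0, 1, 3, 7 and 14, and its myeloid level 20.5, 15.7, 7.58 and 19.7 on day 0, 1, 3 and 14. Only on day 14 was the myeloid value above the epithelial one, which came from 27 cells with 236 FTL UMIs. Non-cycling B cells had 6.87 on day 0, 2.73 on day 14 and 2.83 on day 21, T cells 4.09 to 8.82, stromal cells 4.65 to 6.75 and endothelial cells 6.11 to 7.31.

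FTL was 5.04-fold higher in epithelial than in non-cycling B cells (log2 2.33, SE 0.25, adjusted p = 1.03e-08) and 3.29-fold higher in myeloid cells (log2 1.72, SE 0.27, adjusted p = 9.03e-06). Unlike FTH1, it was not called in stromal cells (log2 -0.23, SE 0.29, adjusted p = 0.536) or endothelial cells (log2 0.01, SE 0.29, adjusted p = 0.985), though the difference between the genes was not itself tested. Background RNA held FTL at 21.3 and 20.3 on day 0 and 1 and at 3.38 to 6.80 later, above all B, T, stromal, endothelial and myeloid values of day 0 and 1.

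The ratio of FTH1 to FTL UMIs ranged differently in the lineages, with overlap. In epithelial cells it was 1.88, 1.92, 1.70 and 1.72 on day 0, 1, 3 and 7 and then 8.95 on day 14. Myeloid cells had 3.64, 22.3, 6.89 and 8.24 in the libraries of day 0, 1, 3 and 14, stromal cells 6.89 to 12.97 and endothelial cells 4.51 to 8.03. Non-cycling B cells had 2.64 to 4.52 and T cells 1.80 to 2.95, with background RNA at 1.91 to 4.54. T cells and background RNA thus overlapped the epithelial range. Apart from the day 14 library, epithelial ratios lay below all stromal, endothelial and myeloid ones.

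**Figure D3:**
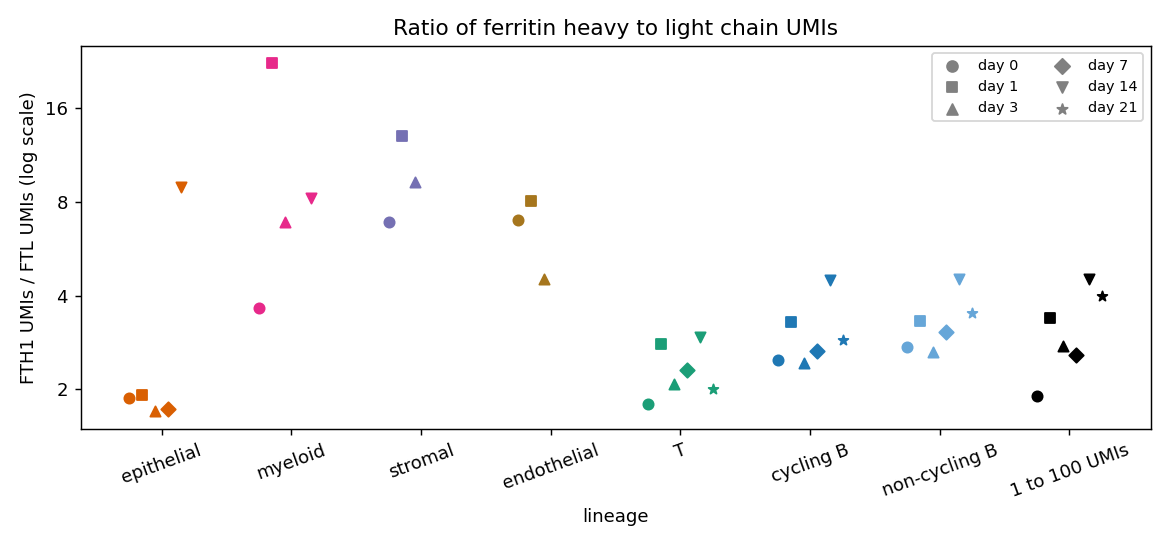
Ratio of FTH1 to FTL UMIs (log axis) in each lineage and in barcodes of 1 to 100 UMIs, with 1 symbol per library and its shape giving the age. Epithelial ratios sat between 1.70 and 1.92 except on day 14 (8.95), and the myeloid ratio of day 1 was 22.3.

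The high FTH1 of day 1 was present in the named classes of myeloid cells, which were cut by their own marker genes. Macrophage-like cells (C1QA, C1QB, C1QC, CD163) held 99.4 UMIs per 10000 on day 0 (87 cells) and 456 on day 1 (272 cells). Granulocyte or monocyte-like cells (S100A8, S100A9, S100A12) held 576 on day 1 (220 cells) and numbered 3 on day 0. The other myeloid cells held 58.9, 103, 46.8 and 55.9 in the libraries of day 0, 1, 3 and 14. The day 1 value was thus higher than that of day 0 in both classes with at least 20 cells at both ages. Macrophage-like FTL was 37.8 on day 0 and 22.1 on day 1, lower where FTH1 was higher. On day 3 only 12 macrophage-like and 6 granulocyte or monocyte-like cells were found, and on day 14 the numbers were 16 and 15. In such sums fewer cells of a type and less RNA per cell cannot be told apart.

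Among epithelial cells FTH1 was highest in enterocyte-like cells, which carry apolipoproteins and fatty acid binding proteins. Enterocyte-like cells held 83.2, 93.5, 69.3 and 119 in the libraries of day 0, 1, 7 and 14, goblet-like cells 49.2, 48.5 and 21.8 on day 0, 1 and 3, enteroendocrine-like cells 47.1, 52.4 and 33.1, and crypt-like cells 29.9, 23.97 and 19.5. On each day with both, crypt-like cells were lowest of the named classes. On day 3 only 6 of 87 epithelial cells were enterocyte-like, and all 27 of day 14 were, so epithelial values of these libraries differ in makeup as well as in age.

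NCOA4, the receptor that delivers ferritin to the lysosome, lay above the B cell values in epithelial cells from day 0 to day 7 and next to them on day 14. Epithelial cells held 0.771, 1.33, 0.752, 1.16 and 0.283 UMIs per 10000 on day 0, 1, 3, 7 and 14, the last from 5 UMIs. Myeloid cells held 0.499, 0.561, 0.413 and 0.834, and non-cycling B cells 0.298, 0.307, 0.285, 0.291, 0.280 and 0.238 from day 0 to day 21, with cycling B cells at 0.135 (7 UMIs, day 0) to 0.310. Background RNA held 0.49995 and 0.551 on day 0 and 1, next to the myeloid values of those days, and 0.146 to 0.189 later. NCOA4 was 2.74-fold higher in epithelial cells (log2 1.46, SE 0.23, adjusted p = 3.47e-06) and 1.74-fold higher in myeloid cells (log2 0.80, SE 0.25, adjusted p = 0.0103) than in non-cycling B cells, the latter not called without the day 14 library (adjusted p = 0.0587, range over the alternatives 0.000199 to 0.0587). The call of 1.58-fold more in epithelial than in myeloid cells (log2 0.66, adjusted p = 0.0404) held in 4 of 13 alternatives, with adjusted p from 0.0104 to 0.295. Its locus overlaps another gene model, LOC100157391, so reads may have been split between them.

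TFRC, the receptor for transferrin-bound iron, was scarce everywhere. It ranged from 0.0446 to 0.0673 in non-cycling B cells, 0.0385 to 0.119 in cycling B cells, 0.0726 to 0.197 in T cells, 0.0813 to 0.103 in myeloid cells and 0 to 0.0659 in epithelial cells. The 0 was that of day 14, where the 27 cells allow up to 0.209. Within the epithelium crypt-like cells held 0.188 on day 1 (0.110 to 0.301, 17 UMIs), above the 0.0248 (0.0164 to 0.0361) of enterocyte-like cells. On day 0 the 2 classes held 0.0894 and 0.0663, with overlapping intervals, and the crypt-like 0.0430 of day 3 came from 1 UMI. Goblet-like and enteroendocrine-like cells held 0.0496 and 0.101 on day 1. Dividing cells are known to need TFRC. Cycling against non-cycling B cells gave log2 0.18 (SE 0.28, adjusted p = 0.692), a difference per UMI and not per cell. Median UMIs per cell were 6396 to 10252 in cycling and 3347 to 3947 in non-cycling B cells. Erythroid genes stood at 8.83 and 7.06 UMIs per 10000 in the cycling B cells of day 1 and 21, which held the most TFRC of their lineage, against 0.0326 to 2.32 in the others, and at 0.0723 to 14.8 in non-cycling B cells. T cells were called 1.83-fold above non-cycling B cells (log2 0.87, SE 0.29, adjusted p = 0.0264), but this held in 7 of 13 alternatives and was lost without day 0, 7, 14 or 21, with adjusted p from 0.00743 to 0.169 over all of them. TFRC is also high in red cell precursors, and the T cells of day 7, which held the most TFRC, held erythroid genes at 8.91 UMIs per 10000 against 0.0739 to 2.14 in T cells of the other 5 libraries. The part of erythroid RNA in these TFRC values was not tested. Background RNA held TFRC at 0.0189 on day 21, its lowest, and at 0.0532 on day 1, its highest. Its erythroid genes stood at 38.7 and 2.71 on those days.

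SLC11A2, the importer of ferrous iron, had its highest levels in T cells and not in the epithelium for which it is best known. T cells held 0.595 (95% interval 0.538 to 0.656), 0.201, 0.383, 0.185, 0.409 and 0.348 from day 0 to day 21. Their T marker list was 110 on day 0 and 34.6 on day 1, and the part of cell makeup in these values was not tested. Epithelial cells held 0.129, 0.154, 0.251, 0.127 and 0 on day 0, 1, 3, 7 and 14, and non-cycling B cells 0.0244 to 0.0469. The T cell value lay above the epithelial and B cell values in each library that held them, but the counting intervals of T and epithelial cells overlapped on day 1, 3 and 7, and this pair was not tested.

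Against non-cycling B cells SLC11A2 was 8.82-fold higher in T cells (log2 3.14, SE 0.32, adjusted p = 1.38e-08), and this call held in all 13 alternatives, with log2 from 2.51 to 3.28 and adjusted p up to 3.83e-06. With each cell thinned to 1000 UMIs, 6.26% of T cells on day 0 held a UMI (19.1% unthinned) against 0.0944% of non-cycling B cells (1.13% unthinned), whose median depth of 3347 UMIs was close to the 3408 of the T cells. On day 21 the thinned shares were 5.85% and 0.345%. Background RNA held SLC11A2 at 0.0400 to 0.151, below the T cell value in every library but above the epithelial 0.129 on day 0.

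SLC11A2 in T cells was looked at further in subsets chosen after the values were seen. On day 0, T cells with CD8 and no CD4 held 0.729 (271 cells), those with CD4 and no CD8 0.278 (105 cells) and those with neither transcript 0.592 (1377 cells). On day 1 the values were 0.299, 0.0911 and 0.203 in the same order, and on day 14 they were 0.354, 0.728 and 0.397, with 9 UMIs behind the CD4 value. CD8 cells were thus above CD4 cells in 5 of 6 libraries, but the CD4 values of day 1, 3, 7 and 21 rest on 8, 9, 7 and 2 UMIs, and the counting intervals of both subsets overlapped except on day 0 and 1. Ungated cells with CD7 or KLRB1 held 0.198 to 0.656 in the 5 libraries from day 0 to day 14, and the other ungated cells 0.0434 to 0.197 over all 6.

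SLC11A2 was also called higher in epithelial cells (3.56-fold, log2 1.83, SE 0.36, adjusted p = 8.42e-05) and myeloid cells (2.57-fold, log2 1.36, SE 0.40, adjusted p = 0.00749). The myeloid call rested on day 1, where the level was 0.197 against 0.0288 to 0.0638 elsewhere. Without that library log2 was 0.06 with adjusted p = 0.939, the highest over the alternatives, of which the lowest was 0.00338. The myeloid call was also lost when cells of several gates were kept (log2 0.79, adjusted p = 0.0640). Among day 1 myeloid cells the granulocyte or monocyte-like ones held 0.319 and the macrophage-like ones 0.233. Within the epithelium crypt-like cells held 0.182, 0.177 and 0.172 on day 0, 1 and 3, no less than the 0.125 and 0.167 of enterocyte-like cells on day 0 and 1.

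CYBRD1, the ferric reductase of the brush border, was highest in stromal cells at the 3 ages that held them. They held 3.49 (3.14 to 3.87), 3.08 (2.84 to 3.34) and 2.63 (2.32 to 2.96) UMIs per 10000 on day 0, 1 and 3. Epithelial cells held 1.09, 0.799, 0.251, 2.64 and 0.678 on day 0, 1, 3, 7 and 14, and myeloid cells 0.563, 0.692, 0.711 and 0.921. Stromal values thus exceeded the epithelial ones of the same library each time, though the epithelium of day 7 reached a like level. In 1000 thinned UMIs, 27.7% of stromal cells on day 0 held a CYBRD1 UMI (61.5% unthinned), against 7.80% of epithelial cells (42.5% unthinned) and 0.472% of non-cycling B cells (2.55% unthinned).

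CYBRD1 was 66.8-fold above non-cycling B cells in stromal cells (log2 6.06, SE 0.64, adjusted p = 1.20e-08), 33.0-fold in epithelial cells (log2 5.04, SE 0.63, adjusted p = 1.01e-07), 23.3-fold in myeloid cells (log2 4.54, SE 0.62, adjusted p = 1.64e-06) and 4.89-fold in endothelial cells (log2 2.29, SE 0.76, adjusted p = 0.0151). The endothelial call was lost when cells of several gates were kept (adjusted p = 0.405, with 0.00367 the lowest over the alternatives) and without the day 1 library (adjusted p = 0.152). Background RNA held 0.459 and 0.485 on day 0 and 1, above the endothelial 0.163 and 0.261 of those days. The T cell call (log2 1.63, SE 0.60, adjusted p = 0.0450) held in 5 of 13 alternatives and was lost without day 0, 3, 14 or 21, with adjusted p from 0.0107 to 0.332. Stromal and epithelial cells were not compared by a test of their own. Within the epithelium the enterocyte-like cells led with 1.59, 0.945 and 3.48 on day 0, 1 and 7, while crypt-like cells held 0.354 to 0.516.

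SLC40A1, the iron exporter, was highest in epithelial cells on day 0, 1, 7 and 14, while stromal cells held more on day 3. The day 21 library held too few epithelial cells for a value. Epithelial cells held 0.551, 1.29, 0.0923, 1.21 and 0.791 on day 0, 1, 3, 7 and 14, the day 3 value from 7 UMIs and the day 14 value from 14. Myeloid cells held 0.209, 0.132, 0.0243 and 0.0575, stromal cells 0.223, 0.231 and 0.461, and non-cycling B cells 0.0292 on day 0 and 0.00175 on day 21. Enterocyte-like cells led with 0.806, 1.61, 1.60 and 0.791 on day 0, 1, 7 and 14, and crypt-like cells held 0.0430 to 0.111. Macrophages are known as iron exporters too, and macrophage-like cells held 0.519 on day 0 and 0.217 on day 1 against 0.0190 and 0.0473 in the other myeloid cells.

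SLC40A1 was 59.0-fold higher in epithelial than in non-cycling B cells (log2 5.88, SE 0.58, adjusted p = 2.36e-09), 20.7-fold in stromal cells (log2 4.37, SE 0.65, adjusted p = 2.37e-06), 7.79-fold in myeloid cells (log2 2.96, SE 0.63, adjusted p = 0.000434) and 7.55-fold in endothelial cells (log2 2.92, SE 0.71, adjusted p = 0.00129), the last lost when cells of several gates were kept (adjusted p = 0.409, with 0.000650 the lowest over the alternatives). The stromal difference was called in all 13 alternatives, with log2 2.95 without day 3 and 5.21 without day 1. Epithelial cells were 7.57-fold above myeloid cells (log2 2.92, SE 0.65, adjusted p = 0.000535), called in all 13 alternatives with adjusted p up to 0.0453. Background RNA held 0.253, 0.523 and 0.125 on day 0, 1 and 3, so the stromal level was below it on day 0 and 1 and above it on day 3, and the endothelial level (0.170, 0.187 and 0.0572) was below it on all 3 days. The myeloid level was also below it on those days and above it on day 14 (0.0101), and the epithelial level was below it on day 3. The macrophage-like value lay above it on day 0 and below it on day 1. The endothelial value of day 3 (26 cells) and the myeloid values of day 3 and 14 rest on very few UMIs, so their place against background RNA is uncertain. The part of background RNA in the stromal, endothelial and myeloid values was not tested.

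HEPH, the ferroxidase that works beside ferroportin, was found above all in epithelial cells. Epithelial cells held 0.401, 0.838, 0.237, 1.27 and 1.92 on day 0, 1, 3, 7 and 14. Myeloid cells had 7 UMIs in 4 libraries, and macrophage-like cells none in 87 and 272 cells, with upper limits of 0.0563 on day 0 and 0.0145 on day 1. Enterocyte-like cells held 0.458, 0.986, 1.47 and 1.92 on day 0, 1, 7 and 14, each above the one before with 34 UMIs behind the last, goblet-like cells 0.412 and 0.644 on day 0 and 1, and crypt-like cells 0.208 and 0.255.

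HEPH was 110-fold higher in epithelial than in non-cycling B cells (log2 6.78, SE 0.69, adjusted p = 8.29e-09) and 117-fold higher than in myeloid cells (log2 6.86, SE 1.02, adjusted p = 4.66e-06). The latter was not called when cells of several gates were kept (log2 2.47, adjusted p = 0.0618, range over the alternatives 2.56e-09 to 0.0618). Stromal cells (log2 3.56, adjusted p = 0.00102) and endothelial cells (log2 3.02, adjusted p = 0.00878) were called as well at levels of 0.0710 to 0.126, under the background RNA of 0.233 and 0.230 on day 0 and 1 and above its 0.0104 on day 3. Both calls were lost when cells of several gates were kept, with adjusted p of 0.327 and 0.705, the highest of their alternatives, the lowest being 0.000321 and 0.00380. The endothelial one was also lost without the day 1 library (adjusted p = 0.129).

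HMOX1, which opens the haem ring and frees its iron, was highest in myeloid cells. For day 0, 1, 3 and 14 they held 1.28 (1.12 to 1.46), 1.67 (1.56 to 1.78), 0.468 (0.369 to 0.585) and 4.66 (3.97 to 5.44). Epithelial cells held 0.514, 0.699, 0.0527, 0.405 and 0.170 on day 0, 1, 3, 7 and 14. Macrophage-like cells held 2.90 on day 0 and 2.72 on day 1, granulocyte or monocyte-like cells 1.65 on day 1, and the other myeloid cells 0.295, 0.416, 0.448 and 1.70 on day 0, 1, 3 and 14. Thinned to 1000 UMIs, 16.1% of macrophage-like cells on day 0 and 20.6% on day 1 held a UMI.

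HMOX1 was 42.6-fold higher in myeloid than in non-cycling B cells (log2 5.41, SE 0.49, adjusted p = 2.37e-09), 13.01-fold in epithelial cells (log2 3.70, SE 0.47, adjusted p = 1.40e-07), 4.94-fold in endothelial cells (log2 2.30, SE 0.63, adjusted p = 0.00381) and 3.40-fold in stromal cells (log2 1.77, SE 0.63, adjusted p = 0.0195). The stromal call was lost without the library block, with cells of several gates kept (adjusted p = 0.785, with 0.00582 the lowest over the alternatives) and without the day 0 or the day 1 library (adjusted p = 0.167 and 0.175). The endothelial one was lost with those cells kept (adjusted p = 0.400, lowest 0.000257) and without the day 1 library (adjusted p = 0.132). Epithelial cells were below myeloid cells (log2 -1.71, SE 0.46, adjusted p = 0.00274), called in all 13 alternatives with adjusted p up to 0.0431. Background RNA held 0.281 and 0.357 on day 0 and 1, above the endothelial and stromal levels of those days (0.106 to 0.252).

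The high HMOX1 of day 14 was not limited to myeloid cells. Non-cycling B cells held 0.0849 (0.0759 to 0.0948) on day 14 against 0.00848 to 0.0291 in the other 5 libraries, and T cells 0.186 (0.120 to 0.275) against 0 to 0.0255. Cycling B cells held 0.0538 (0.0473 to 0.0608) on day 14 against 0.00478 to 0.0400 (0.0308 to 0.0509 on day 3) in the others, so the intervals of day 14 and day 3 overlapped. Background RNA also held more on day 14 (0.0893) than on day 3, 7 or 21 (0.0189 to 0.0363), but less than on day 0 and 1 (0.281 and 0.357). Erythroid genes in background RNA stood at 3.08 on day 14, above day 0, 1 and 3 and below day 7 and 21. They were at 2.71 on day 1 and 38.7 on day 21. The part of erythroid RNA in the HMOX1 values of day 14 was not tested. The non-cycling B value of day 14 was next to the background value and the T cell value above it, and the part of background RNA in them was not tested. Epithelial cells held 0.170 on that day, from 3 UMIs.

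**Figure D4:**
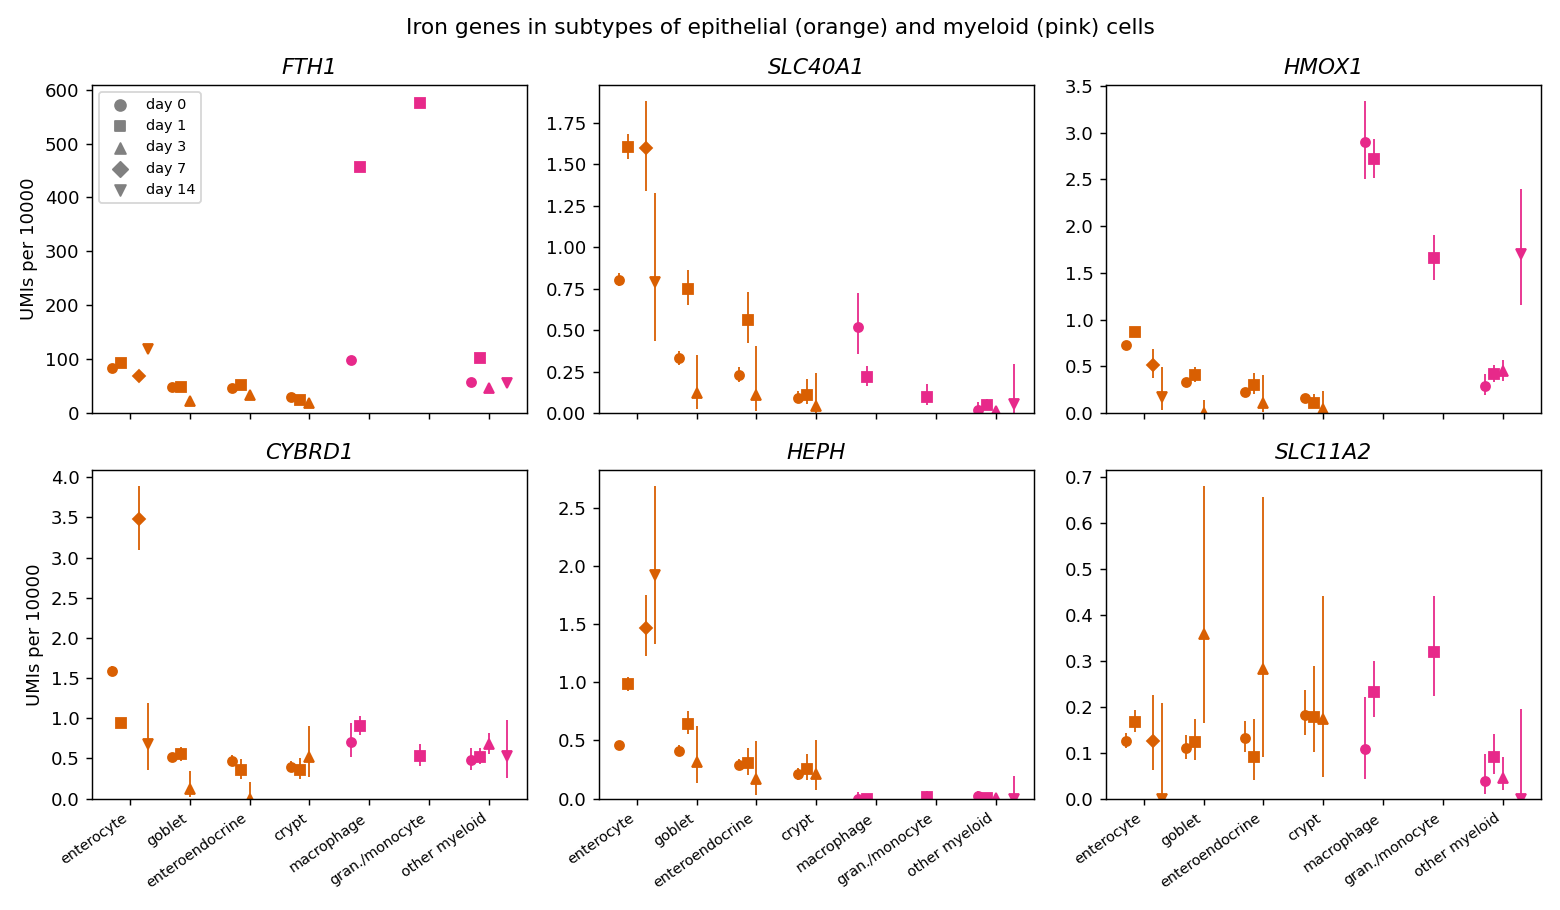
Levels of 6 genes in UMIs per 10000 in classes of epithelial cells (orange) and myeloid cells (pink) for each library with at least 20 cells of the class, the symbol giving the age and the bars exact Poisson 95% intervals. FTH1 on day 1 was 456 in macrophage-like and 576 in granulocyte or monocyte-like cells, while SLC40A1, CYBRD1 and HEPH reached their highest values, 1.61, 3.48 and 1.92, in enterocyte-like cells.

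Counted over the set, 8 of 9 genes were higher and none lower in epithelial than in non-cycling B cells, where 35.1% of all genes tested were called higher and 29.3% lower. In myeloid cells 7 of 9 were higher and none lower, against 23.6% and 22.7% of all genes. Stromal cells had 5 higher and none lower against 30.7% and 22.6% of all genes, and endothelial cells 5 and none against 24.8% and 20.9%, the 5 becoming 2 (FTH1 and SLC40A1) without the day 1 library. The share of all genes called without that library is not given here, so the drop is not a result about the members alone. All 9 passed the filter on low counts. The median log2 of the 9 was 2.33 in epithelial, 1.72 in myeloid, 1.45 in stromal and 1.11 in endothelial cells, beside medians of 0.03, -0.06, 0.07 and -0.06 over all genes.

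T cells had 3 genes called higher (13.7% of all genes were, and 13.8% lower), of which SLC11A2 alone was called in all alternatives, and the median log2 of the set was 0.68. Between epithelial and myeloid cells SLC40A1, HEPH and NCOA4 were higher in the former (29.5% of all genes were) and FTH1 and HMOX1 in the latter (22.2%). Cycling against non-cycling B cells gave 0 of 9 calls by edgeR and 0 by DESeq2, where 8.14% of all genes were called higher and 9.66% lower, and 1 of 9 had an unadjusted p under 0.05 (SLC40A1, log2 -1.56, at 0.0432). In T, stromal and endothelial cells, and between epithelial and myeloid cells, the number of calls was lower when cells that passed several gates were kept, at 1, 3, 1 and 2. In myeloid cells the number did not change, but SLC11A2 was lost (adjusted p = 0.0640) and HEPH was called (log2 3.05, adjusted p = 0.0105). The shares of all genes called in that setting are not given here, so the changed counts are not results about the members alone.

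**Figure D5:**
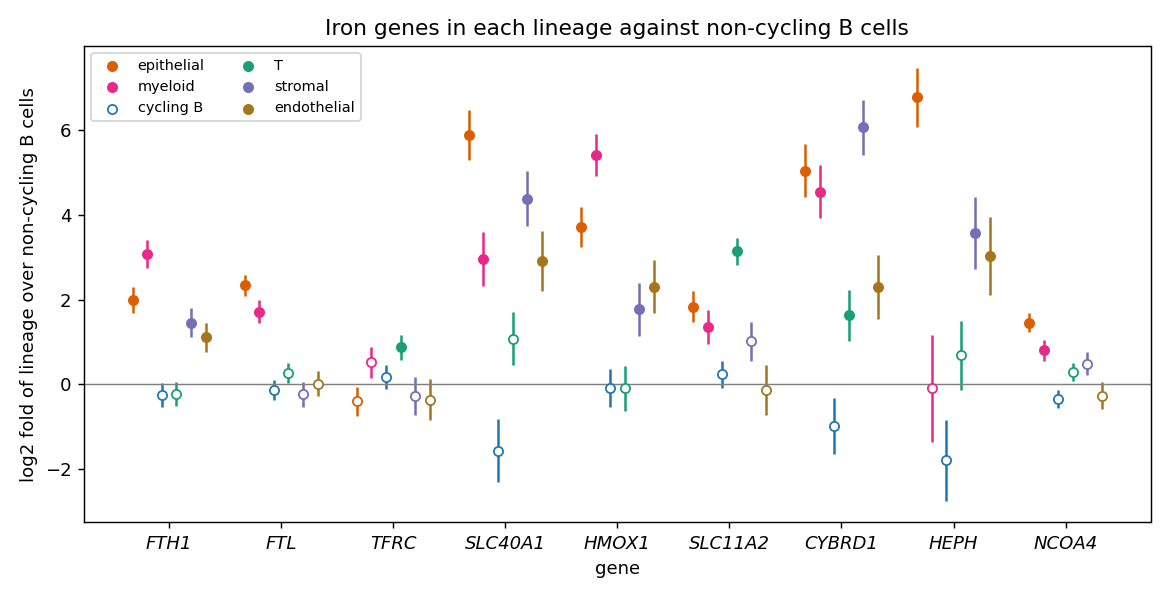
Log2 fold of each gene in 6 lineages over non-cycling B cells from edgeR's quasi-likelihood fit, with bars of 1 SE (derived from the F statistic), filled points for adjusted p under 0.05 and open points for the rest. SLC40A1, CYBRD1 and HEPH reached log2 5.88, 5.04 and 6.78 in epithelial cells, HMOX1 5.41 in myeloid cells, CYBRD1 6.06 in stromal cells and SLC11A2 3.14 in T cells.

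Between the first and the last library with enough cells, members were counted past 2-fold where both libraries together had at least 50 UMIs. In epithelial cells from day 0 to day 14, 7 genes had a fold, since TFRC and SLC11A2 had 0 UMIs on day 14. Of the 7, HEPH was higher (log2 2.26, from 34 UMIs on day 14), where 19.7% of all genes were. FTL (log2 -1.38), HMOX1 (log2 -1.60, 3 UMIs) and NCOA4 (log2 -1.45, 5 UMIs) were lower, where 20.9% were. With at least 10 UMIs expected in each library, a stricter rule added after seeing the data, FTL and NCOA4 remained and none was higher, where 32.1% of all genes were lower and 14.4% higher. The day 0 library had 1074 enterocyte-like cells of 2601 and the day 14 library only such cells. Within that class HEPH was 0.458 and 1.92, FTL 43.5 and 13.3, HMOX1 0.729 and 0.170, and NCOA4 0.898 and 0.283. CYBRD1 of that class was 1.59 and 0.678 (12 UMIs), past 2-fold lower although it was not so in the whole lineage. Myeloid cells from day 0 to day 14 had FTH1 (log2 1.13) and HMOX1 (log2 1.86) higher of 5 genes, where 11.8% of all genes were, and none lower, where 9.83% were. In the other myeloid cells, the one myeloid class with at least 20 cells at both ages, FTH1 was 58.9 and 55.9 and HMOX1 0.295 and 1.70, so FTH1 was not higher there. Granulocyte or monocyte-like cells were 3 of 244 myeloid cells on day 0 and 15 of 74 on day 14, and the part of that makeup was not tested. Non-cycling B cells from day 0 to day 21 had FTL (log2 -1.28) and CYBRD1 (log2 -4.54, 64 and 14 UMIs) lower of 6 genes, where 10.6% were, and none higher, where 28.6% were.

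Fewer members were past 2-fold elsewhere. Cycling B cells had only TFRC higher of 5 genes (log2 1.11, from 2 UMIs on day 0), where 18.5% of all genes were and 5.8% were lower. Under the stricter rule it had none, where 16.8% were higher and 2.48% lower. T cells had none of 6 in either direction, where 15.8% were higher and 7.55% lower. Stromal cells from day 0 to day 3 had only SLC40A1 of 5 (log2 1.05), where 6.22% were higher and 2.88% lower, and endothelial cells none of 3, where 4.23% were higher and 9.48% lower. CYBRD1 of non-cycling B cells was 0.0812 on day 0 and 0.00349 on day 21, beside 0.459 and 0.0113 in background RNA, and FTL 6.87 and 2.83, beside 21.3 and 3.38. The part of background RNA in both was not tested. Keeping cells of several gates raised the counts to 5 in myeloid and cycling B cells and 6 in non-cycling B and T cells. The share of all genes was not computed in that setting, so these counts are not results about the members alone.

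Between neighbouring ages most epithelial values of day 3 were below those before and after. From day 1 to day 3 FTH1 (log2 -1.68), FTL (-1.50), SLC40A1 (-3.81), HMOX1 (-3.73), CYBRD1 (-1.67) and HEPH (-1.82) were past 2-fold lower, where 17.3% of all genes were and 13.9% were higher. From day 3 to day 7 the same 6 were past 2-fold higher, with log2 of 1.22, 1.20, 3.71, 2.94, 3.40 and 2.42, where 23.8% of all genes were and 8.55% were lower. NCOA4 stayed within 2-fold at both steps (log2 -0.82 and 0.63), and SLC11A2 was at 0.154 and 0.251 on day 1 and 3. The day 3 epithelium held few enterocyte-like cells, as given above, and the part of that makeup in these values was not tested. Of the classes with at least 20 cells on both days, goblet-like cells had FTH1 at 48.5 on day 1 and 21.8 on day 3, FTL at 28.2 and 8.99, SLC40A1 at 0.751 and 0.119 (3 UMIs), HEPH at 0.644 and 0.318 (8 UMIs), CYBRD1 at 0.549 and 0.119 (3 UMIs), and HMOX1 at 0.412 and 0. Enteroendocrine-like cells had FTH1 at 52.4 and 33.1, FTL at 24.8 and 20.5, SLC40A1 at 0.564 and 0.112 (2 UMIs), HEPH at 0.302 and 0.169 (3 UMIs), CYBRD1 at 0.352 and 0, and HMOX1 at 0.302 and 0.112 (2 UMIs). Crypt-like cells (56 and 21 cells) had FTH1 at 23.97 and 19.5, FTL at 12.8 and 14.7, SLC40A1 at 0.111 and 0.0430 (1 UMI), HEPH at 0.255 and 0.215 (5 UMIs), CYBRD1 at 0.354 and 0.516 (12 UMIs), and HMOX1 at 0.111 and 0.0430 (1 UMI). The 0 of goblet-like HMOX1 allows up to 0.147 and that of enteroendocrine-like CYBRD1 up to 0.207. The classes thus differed in how far they moved, and FTL and CYBRD1 of crypt-like cells were not lower on day 3. From day 7 to day 14 FTH1 was past 2-fold higher (log2 1.07), where 8.59% of all genes were, and FTL (-1.31), HMOX1 (-1.26), CYBRD1 (-1.96) and NCOA4 (-2.04) were lower, where 25.8% were. Only 106 of 196 epithelial cells were enterocyte-like on day 7, against all 27 on day 14. Within that class FTH1 was 69.3 and 119, a difference of less than 2-fold, while FTL was 39.1 and 13.3, HMOX1 0.516 and 0.170, CYBRD1 3.48 and 0.678 (12 UMIs), NCOA4 1.37 and 0.283, and SLC40A1 1.60 and 0.791 (14 UMIs).

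Myeloid cells had FTH1 (log2 2.23) and SLC11A2 (1.63) past 2-fold higher on day 1 than on day 0 and none lower, where 7.56% of all genes were higher and 5.33% lower. From day 1 to day 3 FTH1 (-2.75), FTL (-1.05), SLC40A1 (-2.44), HMOX1 (-1.83) and SLC11A2 (-2.02) were lower and none higher, where 8.44% of all genes were lower and 13.9% higher. From day 3 to day 14 FTH1 (1.64), FTL (1.38), HMOX1 (3.32) and NCOA4 (1.013) were higher and none lower, where 10.4% were higher and 15.4% lower. The makeup also differed, since cells of neither named class were 277 of 769 on day 1, 159 of 177 on day 3 and 43 of 74 on day 14. Among those other myeloid cells FTH1 was 103, 46.8 and 55.9 on these days, FTL 6.65, 6.95 and 8.97, and HMOX1 0.416, 0.448 and 1.70 (32 UMIs). FTL and HMOX1 were thus not lower on day 3 than on day 1 in that class, and the part of makeup in the values of the whole lineage was not tested.

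The epithelium of the day 1 library had higher levels of the export genes than that of day 0 (SLC40A1 log2 1.23, HEPH log2 1.06). Of all genes 5.89% were past 2-fold higher and 4.82% lower. The other 7 members stayed within 2-fold. Enterocyte-like cells were 1074 of 2601 epithelial cells on day 0 and 577 of 920 on day 1. The part of that makeup was not tested. Within that class SLC40A1 was 0.806 and 1.61, just under 2-fold, and HEPH 0.458 and 0.986, while CYBRD1 was 1.59 and 0.945.

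Other iron genes were counted from a list of 48, of which 46 were in the files and 36 passed the filter. In epithelial cells 16 of the 36 were higher and 3 lower than in non-cycling B cells, with a median log2 of 0.41, beside 35.1% and 29.3% of all genes and a median of 0.03. The largest differences were CUBN (log2 6.36), an endocytic receptor that also takes up transferrin, HFE (5.16), a partner of the transferrin receptor in iron sensing, SLC39A8 (4.84), a metal importer, and LCN2 (-4.66), which binds bacterial siderophores. In myeloid cells 19 were higher and 4 lower (23.6% and 22.7% of all genes, median log2 0.64 beside -0.06), led by CD163 (7.65), the scavenger receptor for haemoglobin, SLC11A1 (5.96), the metal transporter of phagosomes, HFE (5.37) and LCN2 (3.91).

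Stromal cells had 8 of the 36 higher and 6 lower (30.7% and 22.6% of all genes, median log2 0.0016 beside 0.07), led by EPAS1 (log2 5.32), a hypoxia factor that acts on iron genes of the gut, HFE (3.04), ACO1 (2.92), an iron regulatory protein, and BLVRA (2.10), which reduces the biliverdin that HMOX1 makes. Endothelial cells had 11 higher and 3 lower (24.8% and 20.9% of all genes, median log2 0.07 beside -0.06), led by EPAS1 (5.65), STEAP3 (4.82), a ferrireductase of endosomes, SLC39A8 (3.37) and HFE (2.52). T cells had 6 higher and 2 lower (13.7% and 13.8% of all genes, median log2 -0.15 beside -0.0072), led by EPAS1 (4.41), LCN2 (2.34), SLC39A14 (-1.53), a metal importer, and HP (1.48), which binds free haemoglobin. All genes named from the list were called. Cycling B cells had 4 higher and 5 lower (8.14% and 9.66% of all genes, median log2 -0.21 beside -0.16), led by LCN2 (-2.83), CUBN (-2.77), HFE (1.300) and HP (-1.25). Between epithelial and myeloid cells 11 were higher and 8 lower (29.5% and 22.2% of all genes, median log2 -0.16 beside 0.14), led by CD163 (-10.17), LCN2 (-8.57), CUBN (7.52) and LTF (-4.76), the iron-binding protein of neutrophil granules.

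Genes whose levels ran most like those of the members over the 33 sums of library and lineage are given as a description, since sums of one library share cells' preparation and depth. Pearson's r of log levels with FTH1 was among the highest for CXCL16 (0.925), RAC1 (0.915), HNMT (0.912) and ASAH1 (0.902), and with HMOX1 for ATP6V0B (0.884), FTH1 (0.858), PSAP (0.857) and ASAH1 (0.853). SLC40A1 ran with DIRC2 (0.970), SELENOP (0.952), MPP5 (0.933), EHHADH (0.924) and AGAP1 (0.923), and TFRC with HGH1 (0.832), KAT2A (0.830), METTL8 (0.808), CCDC86 (0.804) and HMGN4 (0.787). Within the set the closest pair was SLC40A1 and HEPH (0.881), FTH1 and FTL had 0.720, and TFRC with HEPH had -0.667.

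By the RefSeq annotation of Sscrofa11.1, the assembly the authors counted against, all 9 are protein-coding. FTH1 lies on chromosome 2 (9535051 to 9537979), FTL on chromosome 6 (54231121 to 54232756), NCOA4 on chromosome 14 (90505614 to 90531302), TFRC on chromosome 13 (133976765 to 133997554), HEPH on chromosome X (52314911 to 52397384), and CYBRD1 (77649124 to 77695141) and SLC40A1 (94140635 to 94161793) both on chromosome 15. HMOX1 and SLC11A2 lie on unplaced scaffolds.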

How the data were processed

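Single-cell RNA of pig ileum was measured in 6 libraries, 1 per age. The authors counted reads with Cell Ranger 3.1.0 (with STAR) against Sscrofa11.1 and deposited unfiltered, unnormalized UMI counts, with 20648 genes and 6794880 listed barcodes in each library. Library totals ran from 77391932 to 100348769 UMIs. Cells needed at least 1000 UMIs and 500 genes. Gates needed 5 UMIs of the epithelial genes, 10 of the myeloid, 2 of the B, T or TOP2A genes, 5 of the stromal and 3 of the endothelial. No doublet caller was run, and cells passing more than 1 main gate were left out. Free RNA was read from barcodes of 1 to 100 UMIs.

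Sums of at least 20 cells per library and lineage were tested with edgeR 4.0.16 (R 4.3.3; TMM, filterByExpr, quasi-likelihood F test, library as block), with gate genes left out of the genes tested. P-values measure how far differences between lineages vary over libraries of different age. The spread of each gene was estimated over all 33 sums of all lineages. That of the stromal and endothelial contrasts, with 3 sums each, therefore rests largely on other lineages. Between ages no test was possible, and no fold of a member is given where a count was 0. In the shares over all genes a 0 was set to a floor of 3 counts. Genes whose 0 that floor would place above the other library were left out. Levels have exact Poisson and shares exact Clopper-Pearson 95% intervals (scipy 1.17.1, numpy 2.4.6, pandas 2.3.3, Python 3.11.15, matplotlib 3.10.9). Likeness used log2(UMIs per 10000 + 0.01) of genes with at least 200 UMIs. On simulated data for myeloid against non-cycling B cells (10043 genes) the test recovered 51.3% of genes changed by log2 1, 100% by 2, 36.8% by -1 and 83.8% by -2, with 8 of 9886 unchanged genes called. The simulated lineages were all drawn from the non-cycling B profile of the same library, with the same spread for every gene. Lineage differences thus did not vary with age as they can in the data, so these rates do not carry over to the real contrasts.

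The members are always named; of the other iron genes the 4 with the largest log2 change among the called ones, and the 5 genes most like FTH1, TFRC, HMOX1 and SLC40A1, of which 1 gene is not reported here. Members, lists and tests were chosen with earlier results of these data known. Alternatives were DESeq2 1.42.0, no filter, no block, gates as written with overlapping cells kept, at least 2000 UMIs, a mitochondrial share under 25%, shared barcodes left out, each library left out, and for ages also means over cells, thinning to 1000 UMIs, a denominator without mitochondrial UMIs, a fold of 1.5 and, added after seeing the data, at least 10 UMIs expected per library. The genes HJV and ALAS1 of the iron list were not in the files. No sequences were used here.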

Additional observations from a re-analysis of the deposited data

Results flagged for a closer look

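Each result here is a member that was past 2-fold higher in 1 lineage and past 2-fold lower in another between the same pair of libraries. With 1 library per age, no such difference was tested, and several rest on very few UMIs. HMOX1 between day 0 and day 14 had log2 -1.60 in epithelial cells (3 UMIs on day 14) and 1.86 in myeloid cells. Between day 1 and day 3 it had log2 -3.73 in epithelial cells (4 UMIs on day 3) and -1.83 in myeloid cells but 1.08 in cycling B cells (3 UMIs on day 1). Between day 3 and day 7 it had 2.94 in epithelial and -1.35 in cycling B cells, and between day 7 and day 14 -1.26 in epithelial cells, 1.77 in cycling B cells and 1.54 in non-cycling B cells. CYBRD1 between day 3 and day 7 had log2 3.40 in epithelial cells and -1.46 in non-cycling B cells, the latter at levels below those of RNA outside cells. SLC11A2 between day 0 and day 1 had log2 1.63 in myeloid cells (11 and 114 UMIs) and -1.57 in T cells (397 and 155 UMIs). The T marker list of these T cells was 110 and 34.6 UMIs per 10000 on those days.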

How the results depend on the processing

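Of the counts of members under the alternatives, 128 lay within 1.5 times the main count and 26 did not. The T cell count of 3 calls became 1 without the block on library (no replicate block) and 1 with gates as written, where cells of several gates are kept, and ranged from 1 to 3 with each library left out (1 without day 0, 14 or 21). The endothelial count of 5 ranged from 2 (without day 1) to 5 and the stromal count of 5 from 4 to 5, where leaving out day 0, 1 or 3 left 2 libraries of these lineages. The block is the library that the sums share. Gates as written gave 3 calls in stromal cells (5), 1 in endothelial cells (5) and 2 between epithelial and myeloid cells (5). Between ages, gates as written gave 5 members past the fold in myeloid (2), 5 in cycling B (1), 6 in non-cycling B (2) and 6 in T cells (0). A fold of 1.5 gave 4 in myeloid, 5 in cycling B, 2 in T and 1 in endothelial cells (0). Thinning gave 0 in cycling B, 1 in non-cycling B, 1 in T and 0 in stromal cells (1). The mean over cells gave 0 in cycling B and 1 in T cells, at least 2000 UMIs 1 in T cells, and at least 10 expected UMIs, added after seeing the data, 2 in epithelial (4) and 0 in cycling B cells. Between ages, shares over all genes were computed only for the main setting and for at least 10 expected UMIs. The counts of the other settings are thus not results about the members alone. Between lineages, the shares of all genes called under the alternatives are not given here, so the same holds for those counts. The cause of these shifts was not tested.

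No called difference between lineages changed direction, while 29 values of members that were not called did, all log2. HEPH in myeloid cells (-0.09) was 0.23 by DESeq2, 0.20 without the block, 3.05 with gates as written, 0.17 with mitochondrial shares under 25%, and -0.42 to 0.46 with a library left out. HMOX1 with a library left out ran from -0.58 to 0.11 in cycling B and from -0.70 to 0.12 in T cells, where it was 0.23 without the block. HEPH in T cells was -0.015 with gates as written. FTL in endothelial cells (0.01) was -0.059 without a filter, -0.32 with gates as written, -0.0099 with at least 2000 UMIs, -0.011 without shared barcodes, and -0.24 to 0.21 with a library left out. SLC11A2 in endothelial cells (-0.14) was 0.030 by DESeq2, 0.22 without the block and -0.58 to 0.14 with a library left out, where NCOA4 ran from -0.62 to 0.025 and TFRC in stromal cells from -0.96 to 0.29. Between epithelial and myeloid cells SLC11A2 ran from -0.071 to 1.66 and CYBRD1 from -0.22 to 0.68 with a library left out. No paired analysis was possible between ages because each age has 1 library. The 27 epithelial cells of day 14 limit all values of that library.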
